A study of Mus musculus with 12 samples.

Results

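The contrast described here set 6-shogaol against 6-gingerol at 30 µM in BV2, a mouse microglial cell line kept growing by immortalization, with bacterial lipopolysaccharide (LPS, an endotoxin) given to every culture compared. It used 4 of the 12 libraries of the series, chosen by their labelled compound and dose: 2 with 30 µM 6-shogaol and LPS, and 2 with 30 µM 6-gingerol and LPS. The other 8 libraries were 2 each of 10 µM 6-shogaol with LPS, 10 µM 6-gingerol with LPS, LPS without compound, and untreated cells. All genes that passed a filter on low counts, 12705, were compared. Per the labels, the cells spent at least 4 h without serum, beginning 24 h after seeding, before a compound was added. LPS at 100 ng/mL followed 1 h after the compound, and the time of harvest is not stated. Polyadenylated RNA was sequenced as stranded, paired-end libraries. Nothing in the labels says whether the 2 replicates of a group were separate cultures, so p-values measure only the spread between these libraries, which may be technical.

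6-Gingerol is the main pungent phenol of fresh ginger, and 6-shogaol is its dehydration product in dried or heated ginger. Both keep a vanillyl head and an alkyl tail. They differ at the ketone: 6-gingerol is a β-hydroxy ketone, whereas 6-shogaol is an α,β-unsaturated ketone, a group known to react with thiols. LPS is sensed by TLR4 with CD14 and MD-2, which signals through MyD88 to NF-κB and MAP kinases and through TRIF to interferon genes. Thiol-reactive compounds are sensed by KEAP1, which releases the transcription factor NRF2 to antioxidant genes, and proteotoxic stress acts through HSF1 on chaperone genes.

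Summed expected counts ran from 16534960 to 21179867 over the 12 libraries, with 16535052 and 18065906 for 30 µM 6-shogaol and 18723488 and 19870189 for 30 µM 6-gingerol. On the first principal component of all 12 libraries (34.4% of the variance), the 30 µM 6-shogaol libraries lay at -31.2 and -30.8, against 16.7 and 17.0 for 30 µM 6-gingerol, with LPS alone at 20.2 and 19.6 and untreated cells at -29.5 and -30.8. On the second (19.9%), 30 µM 6-shogaol lay at 28.3 and 29.2, against -0.928 and 0.575 for 30 µM 6-gingerol, and untreated cells at -30.7 and -28.9. All 12 markers of microglia and macrophages were detected, with a summed 2566 to 2865 TPM for 6-shogaol and 2145 to 2258 TPM for 6-gingerol. Cx3cr1, a defining receptor of microglia in brain, was near 0 in both groups (0.08 to 0.18 TPM for 6-shogaol and 0.10 to 0.27 TPM for 6-gingerol). Of 9 neuronal markers, 8 were at 0 in both libraries of each group, and of 9 astrocyte markers 6, Gfap among them. The astrocyte marker Aldoc was expressed, with 52.01 to 59.41 TPM for 6-shogaol and 40.32 to 43.94 TPM for 6-gingerol. Gja1 had 3.13 to 3.75 TPM with 6-shogaol and 4.74 to 5.62 TPM with 6-gingerol, and Slc1a2 at most 0.66 TPM in either group.

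At 30 µM the compounds left the cells with different transcriptomes. Of the 12705 genes tested, 3171 (25.0%) differed at a Benjamini-Hochberg adjusted p under 0.05 in edgeR's quasi-likelihood test, the threshold for every gene described as called, higher, lower, rising or falling. With 6-shogaol 1592 genes (12.5%) were higher and 1579 (12.4%) lower than with 6-gingerol. The larger differences were mostly decreases: 393 genes (3.09%) were at least 2-fold lower with 6-shogaol and 157 (1.24%) at least 2-fold higher. Adjusted over both doses compared, 2562 of these genes were called. The calls numbered 2157 without 6-shogaol replicate 1, 1869 without 6-shogaol replicate 2, 1807 without 6-gingerol replicate 1 and 2090 without 6-gingerol replicate 2, and 1273 genes were called under all 4 of these omissions. Levels are given in CPM, the counts of a gene scaled to a common library size. In bulk RNA, fewer cells in a given state and less RNA per cell cannot be told apart.

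**Figure D1:**
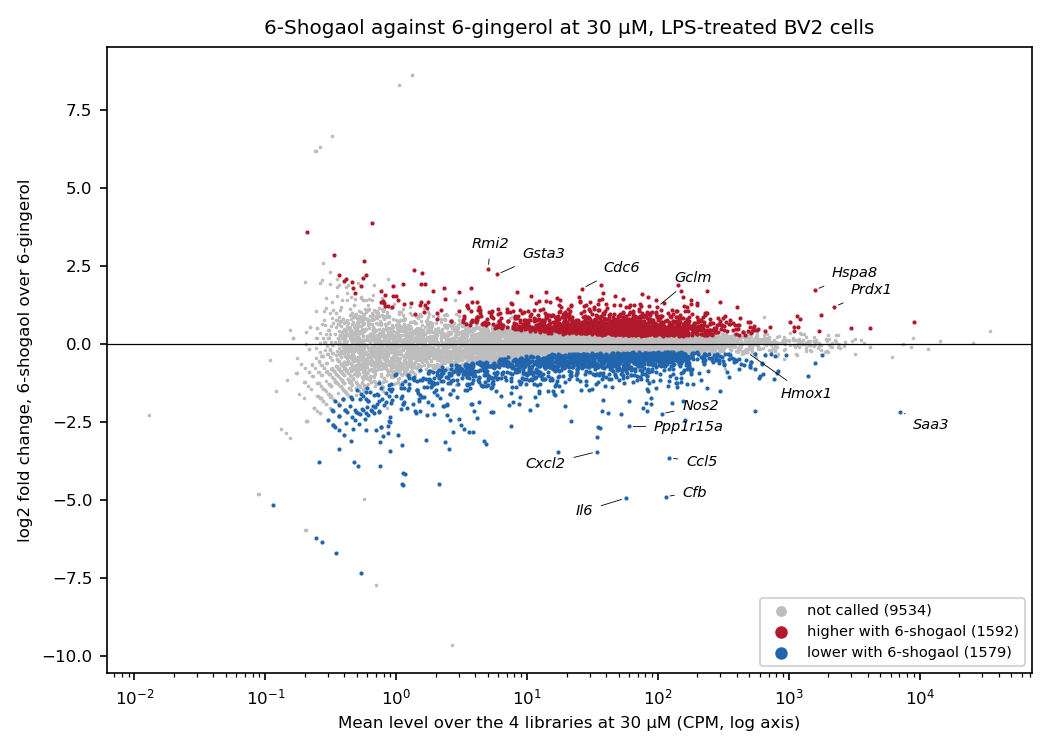
Each point is 1 of the 12705 genes tested, placed by its mean level over the 4 libraries at 30 µM (CPM, log axis) and its log2 fold change, 6-shogaol over 6-gingerol. The 1579 genes lower with 6-shogaol reach further from 0 than the 1592 higher ones at levels above 10 CPM, with Il6 and Cfb lowest of the labelled genes.

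Genes were ranked by fold change if called, with a plain symbol, at least 5 CPM in the higher group and no overlap between the 2 groups. The 12 with the lowest fold changes included Il6, Cfb, Ccl5, Cxcl2, Traf1, Wfdc21, Rtp4, Ccl2, Zbp1, Slamf7 and Snhg12. Most encode secreted immune mediators, interferon-inducible proteins or signalling adaptors. Snhg12, a host transcript of small nucleolar RNAs, had 9.65 and 9.47 CPM with 6-shogaol, against 57.0 and 67.8 CPM with 6-gingerol. Its log2 fold change between the compounds was -2.71 (adjusted p = 3.32e-09), and untreated cells had 53.3 and 46.7 CPM. The 12 with the highest fold changes were Rmi2, Gsta3, S100a4, Ccne2, Tmem254c, Cdc6, Hspa8, Mcm5, Rrm1, Exo1, S100a11 and Dscc1, of which Rmi2, Ccne2, Cdc6, Mcm5, Rrm1, Exo1 and Dscc1 act in DNA replication or repair. S100a4, a calcium-binding protein, had 226 and 221 CPM with 6-shogaol, against 56.9 and 63.5 CPM with 6-gingerol. Its relative S100a11 had 117 and 112 CPM with 6-shogaol, against 34.0 and 42.0 CPM with 6-gingerol. For both S100 genes each 6-shogaol library lay above each of the other 10 libraries of the series. Tmem254c, a transmembrane gene with close copies (Tmem254a and Tmem254b) between which reads can be split, had 7.45 and 4.06 CPM with 6-shogaol, against 1.40 and 1.92 CPM with 6-gingerol, and is uncertain for that reason.

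Secreted cytokines and chemokines were lower with 6-shogaol. Of 14 cytokine genes tested, 11 fell and 1 rose (85.7% called), with a median log2 fold change of -1.45. Of 9 chemokine genes 8 fell and none rose in edgeR's test (0 at an unadjusted p under 0.05, and 0 in DESeq2). That was 88.9% called, with a median of -1.92. Over all genes 25.0% were called, and the median was 0.00. Il6 (ENSMUSG00000025746, chr5:30013114-30019981, plus strand), the acute-phase cytokine, had 2.93 and 4.11 CPM with 6-shogaol, against 101 and 118 CPM with 6-gingerol. The 2 groups lay far apart, and the 6-shogaol libraries were also below the 9.75 and 6.33 CPM of untreated cells. The log2 fold change was -4.95 (SE 0.21, adjusted p = 9.00e-10). Tnf, the early cytokine released by LPS-activated macrophages, had 40.2 and 40.9 CPM with 6-shogaol, against 134 and 137 CPM with 6-gingerol (log2 fold change -1.74, SE 0.09, adjusted p = 1.18e-08). Il1rn, the secreted interleukin-1 receptor antagonist and so an anti-inflammatory member of the list, fell as well, with 9.71 and 9.30 CPM for 6-shogaol and 57.9 and 63.1 CPM for 6-gingerol. Csf1, the macrophage growth factor, had 83.3 and 82.0 CPM with 6-shogaol and 208 and 189 CPM with 6-gingerol. In all 4 genes the groups were separate. Tgfb1, a cytokine that restrains inflammation, was the member that rose, with 124 and 115 CPM for 6-shogaol and 87.3 and 77.3 CPM for 6-gingerol (log2 fold change 0.54, adjusted p = 0.0103). No cytokine was called higher without 6-shogaol replicate 1 or without 6-gingerol replicate 2. Il18 (0.26, adjusted p = 0.396) and Il23a (-2.23, adjusted p = 0.0652) were not called.

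Among the chemokines, Ccl5 (ENSMUSG00000035042, chr11:83525778-83530518), which draws T cells and monocytes, had 21.5 and 14.6 CPM with 6-shogaol, against 190.2 and 263 CPM with 6-gingerol (log2 fold change -3.65, SE 0.20, adjusted p = 4.29e-08). Cxcl2, a neutrophil attractant, had 5.07 and 6.20 CPM with 6-shogaol, against 60.2 and 64.2 CPM with 6-gingerol. Ccl2, which recruits monocytes, had 7.63 and 7.61 CPM with 6-shogaol, against 54.8 and 66.4 CPM with 6-gingerol. In these 3 genes the 6-shogaol libraries were the low ones, by an order of magnitude or close to it. The macrophage inflammatory proteins differed less: Ccl4 had 31.6 and 36.8 CPM with 6-shogaol and 114 and 140.2 CPM with 6-gingerol, and Ccl3 333 and 414 CPM with 6-shogaol and 678 and 923 CPM with 6-gingerol. The log2 fold changes were -1.89 for Ccl4 and -1.10 for Ccl3. Ccl9 was the member not called (-1.51, adjusted p = 0.0768), with an interval of -2.77 to -0.24.

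The promoters of Il6 and Cxcl10 are shown because these genes rose with LPS and fell with 6-shogaol, and because they carry letters of the sites that NF-κB and interferon-activated factors bind. The 250 bases before the RefSeq start of each gene (GRCm38.p6, sequences from RefSeq) were searched on both strands for GGGA, any 2 bases and TTCC (NF-κB) and for TTTC, any 2 bases and TTTC (the interferon-stimulated response element, ISRE). Il6 lies at chr5:30012864-30013113 on the plus strand, with the NF-κB letters in capitals, 44 to 35 bases before the start. Cxcl10 lies at chr5:92348890-92349139 on the minus strand, with an ISRE 213 to 204 bases and the NF-κB letters 159 to 150 bases before the start, both in capitals.
Il6: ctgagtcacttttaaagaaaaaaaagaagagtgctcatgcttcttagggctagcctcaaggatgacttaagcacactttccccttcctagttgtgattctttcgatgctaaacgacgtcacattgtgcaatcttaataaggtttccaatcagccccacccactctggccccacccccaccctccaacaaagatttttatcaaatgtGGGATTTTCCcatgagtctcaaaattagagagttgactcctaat
Cxcl10: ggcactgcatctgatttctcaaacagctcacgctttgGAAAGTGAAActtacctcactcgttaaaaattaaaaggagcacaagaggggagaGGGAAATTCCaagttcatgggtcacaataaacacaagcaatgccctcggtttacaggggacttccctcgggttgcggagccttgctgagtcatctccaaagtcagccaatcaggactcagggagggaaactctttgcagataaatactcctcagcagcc
The NF-κB letters were found in 1.21% of all 32851 promoters in the RefSeq table and in 1.51% of the 9428 tested genes with a promoter there. They were in 13 of 274 (4.74%) of the genes at least 2-fold lower with 6-shogaol and in 1 of 107 (0.935%) of those at least 2-fold higher. A gene was counted when any of its promoters held the letters, so shares of genes and shares of promoters are unlike measures. A match describes the letters in this window and no more.

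Tlr4, the LPS receptor, was not called. It had 57.0 and 60.2 CPM with 6-shogaol and 56.4 and 56.8 CPM with 6-gingerol. The interval of the log2 difference was -0.17 to 0.27 (adjusted p = 0.772). Of 18 genes of the receptor complex and its adaptors, 2 rose and 5 fell (38.9% called, against 25.0% over all genes), with a median log2 fold change of -0.10. Cd14, which hands LPS to the receptor, fell, with 54.3 and 52.8 CPM for 6-shogaol and 111 and 109 CPM for 6-gingerol. Irak2 (-0.83), Ticam2 (-0.64), Myd88 (-0.50) and Traf6 (-0.42), which relay the signal, also fell on the log2 scale. Ly96, which encodes MD-2 (0.67), and Lbp, the serum LPS carrier (0.40), rose, of which no call was left without either 6-gingerol library and 1 without either 6-shogaol library.

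Of 25 NF-κB subunits, kinases and feedback genes, 15 fell and 2 rose (68.0% called, against 25.0% over all genes). Their median log2 fold change was -0.36. Without 6-shogaol replicate 2, 8 fell. Traf1 (ENSMUSG00000026875, chr2:34941750-34961772), an adaptor of TNF receptors and an NF-κB target, had 2.99 and 2.7 CPM with 6-shogaol, against 33.3 and 29.3 CPM with 6-gingerol (log2 fold change -3.46, SE 0.16, adjusted p = 2.60e-09). The groups were about an order of magnitude apart. Tnfrsf1b, the second TNF receptor, had 166 and 146 CPM with 6-shogaol, against 473 and 412 CPM with 6-gingerol. Near the median of the list, Rela, the main activating subunit of the pathway, fell by 0.42 on the log2 scale. Tnfaip3, which encodes the feedback inhibitor A20, fell by 0.36. Nfkbia, which encodes the inhibitor IκBα, had 139 and 126 CPM with 6-shogaol and 150.4 and 149 CPM with 6-gingerol and was not called (interval -0.38 to 0.03, adjusted p = 0.203). Cyld, a deubiquitinase that restrains the pathway (0.48), and the adhesion molecule Icam1 (0.31) were the members that rose, of which 1 was called under each omission of a library.

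Inflammatory effector genes were lower as well. Of 25 tested, 19 fell and 1 rose (80.0% called, against 25.0% over all genes), with a median log2 fold change of -0.92. Cfb (ENSMUSG00000090231, chr17:34856374-34862518), complement factor B of the alternative pathway, had 7.63 and 7.32 CPM with 6-shogaol, against 226 and 218 CPM with 6-gingerol (log2 fold change -4.89, SE 0.11, adjusted p = 4.18e-13). The 6-shogaol libraries lay between the 0.308 and 0.233 CPM of untreated cells and the 261 and 267 CPM of LPS alone. Nos2, the inducible nitric oxide synthase, had 46.3 and 28.1 CPM with 6-shogaol, against 190.1 and 161 CPM with 6-gingerol (log2 fold change -2.24, SE 0.20, adjusted p = 6.83e-06). Ptgs2, which encodes the prostaglandin enzyme COX-2, had 14.8 and 14.8 CPM with 6-shogaol, against 67.4 and 69.1 CPM with 6-gingerol (log2 fold change -2.20, SE 0.11, adjusted p = 6.47e-09). For both enzymes the 6-shogaol libraries were the low ones, without overlap. The acute-phase protein Saa3 had 2739 and 2397 CPM with 6-shogaol, against 11098 and 12276 CPM with 6-gingerol, and the scavenger receptor Marco 50.5 and 49.1 CPM with 6-shogaol, against 261 and 282 CPM with 6-gingerol. Acod1, which makes itaconate, had 569 and 596 CPM with 6-shogaol and 1050.2 and 1078 CPM with 6-gingerol, a smaller log2 difference of -0.87. Casp1, the inflammasome protease, was the member that rose (0.52, adjusted p = 0.0187), with no such call without 6-shogaol replicate 2 or without 6-gingerol replicate 1.

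Genes of the type I interferon response were mostly lower with 6-shogaol: 21 of 32 fell and 1 rose (68.8% called, against 25.0% over all genes). Their median log2 fold change was -1.01. Isg15 (ENSMUSG00000035692, chr4:156199424-156200818, minus strand), a ubiquitin-like modifier, had 18.9 and 17.2 CPM with 6-shogaol, against 92.1 and 79.2 CPM with 6-gingerol (log2 fold change -2.24, SE 0.14, adjusted p = 4.29e-08). Irf7, the factor that amplifies interferon transcription, had 8.06 and 5.24 CPM with 6-shogaol, against 38.1 and 34.7 CPM with 6-gingerol. Rtp4, an interferon-inducible gene, had 0.977 and 0.958 CPM with 6-shogaol, against 8.33 and 8.50 CPM with 6-gingerol. In each of these 3 genes both 6-shogaol libraries were well below both 6-gingerol libraries. Rsad2, which encodes the antiviral enzyme viperin, had 127 and 130.2 CPM with 6-shogaol, against 345 and 337 CPM with 6-gingerol (log2 fold change -1.41). Zbp1, a nucleic acid sensor, fell by 2.84 on the log2 scale. The response did not move as 1 block. Ifit2, an interferon-induced RNA-binding protein, had 34.3 and 36.8 CPM with 6-shogaol and 30.1 and 30.5 CPM with 6-gingerol and was not called (interval 0.00 to 0.46, adjusted p = 0.128). No member was called higher without 6-shogaol replicate 1, without 6-shogaol replicate 2 or without 6-gingerol replicate 2.

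Of 8 guanylate-binding and immunity-related GTPases, which attack intracellular microbes, 5 fell, against 12.4% of all genes, with a median of -1.05. They were led by Gbp2 (-2.63, with 1.95 and 2.20 CPM for 6-shogaol and 12.7 and 13.1 CPM for 6-gingerol). Of 15 genes of MHC class I and peptide loading, 5 fell and none rose in edgeR's test (2 at an unadjusted p under 0.05, none in DESeq2). That was 33.3% called, against 25.0% over all genes, with a median of -0.25. Without 6-gingerol replicate 1 the falls were 3. Psmb10, an immunoproteasome subunit (-0.85), and Nlrc5, the class I transactivator (-0.70), were among the falls. Psmb8, another immunoproteasome subunit, was not called (0.32, adjusted p = 0.0775).

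The Isg15 promoter is shown as that of a strongly lowered interferon gene with clustered ISRE letters. It lies at chr4:156200819-156201068 on the minus strand. Its capitals mark 3 overlapping matches of the ISRE letters on the other strand (GAAA, any 2 bases and GAAA), 78 to 57 bases before the start.
Isg15: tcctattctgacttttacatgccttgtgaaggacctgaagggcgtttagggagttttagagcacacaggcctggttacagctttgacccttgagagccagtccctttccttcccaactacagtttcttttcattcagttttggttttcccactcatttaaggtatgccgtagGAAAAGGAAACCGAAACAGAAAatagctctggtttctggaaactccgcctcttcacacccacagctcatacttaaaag
The ISRE letters were in 2.98% of all promoters, in 3.23% of the tested genes with a promoter, in 26 of 274 (9.49%) of the genes at least 2-fold lower with 6-shogaol and in 4 of 107 (3.74%) of those at least 2-fold higher.

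**Figure D2:**
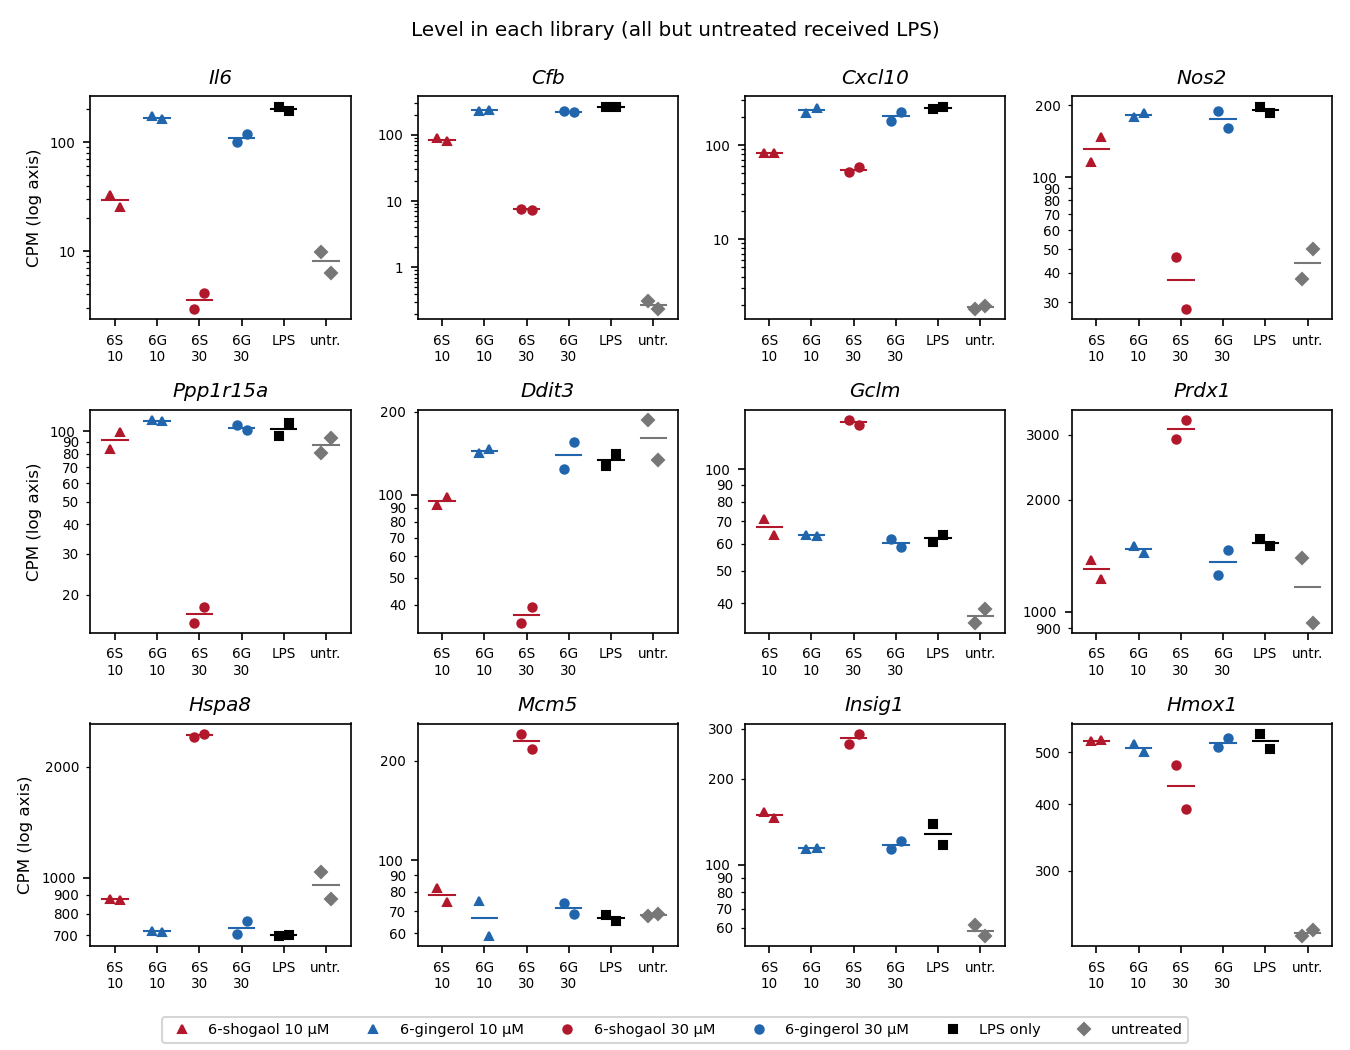
Level (CPM, log axis) of 12 genes in each library, with the mean of the 2 libraries of a group as a line. The columns run from 10 µM to 30 µM, 6-shogaol before 6-gingerol at each dose, followed by LPS alone and untreated cells. Il6, Cfb and Cxcl10 were low with 6-shogaol at both doses, whereas Ppp1r15a, Gclm, Prdx1, Hspa8 and Mcm5 stood apart at 30 µM. Hmox1 was not called between the compounds at 30 µM, with both 6-shogaol libraries there below both libraries of LPS alone.

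The genes that LPS had raised were compared as a set defined in libraries that the compound contrast did not use. Between LPS alone and untreated cells 1501 genes (11.8%) were called, of which 370 (2.91%) rose at least 2-fold and are named LPS-induced here. Without LPS replicate 1 the calls were 855 and without LPS replicate 2 they were 768. Of the 370 LPS-induced genes, 242 (65.4%) were lower with 6-shogaol than with 6-gingerol, 8 were higher, and 120 were not called, where 12.4% of all genes were lower. Their median log2 fold change was -0.98. The 242 made up 15.3% of the 1579 genes lower with 6-shogaol, and 1056 of the 1579 were not called for LPS in either direction. Genes higher with 6-shogaol were seldom LPS-induced: 8 of 1592 (0.503%), with 152 (9.55%) lowered by LPS to any extent, against 4.16% of all genes, and 1390 not called for LPS.

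The lowered genes are described next by where the 30 µM 6-shogaol libraries lay among all 12. These counts are given with no test, since calling a gene lower in the same libraries and sorting genes by their untreated level fix much of them. Over all 12705 genes tested, both 30 µM 6-shogaol libraries were below all other 10 libraries in 1577 (12.4%) and above them in 1831 (14.4%). Among the 242 LPS-induced ones, both were below all other 10 libraries, untreated cells included, in 27 (11.2%), Il6 among them. That share was near the one over all genes. Among the 1056 not called for LPS they were below all other 10 in 872 (82.6%). Of the 1592 genes higher with 6-shogaol, the 2 libraries were above all other 10 in 1274 (80.0%).

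**Figure D3:**
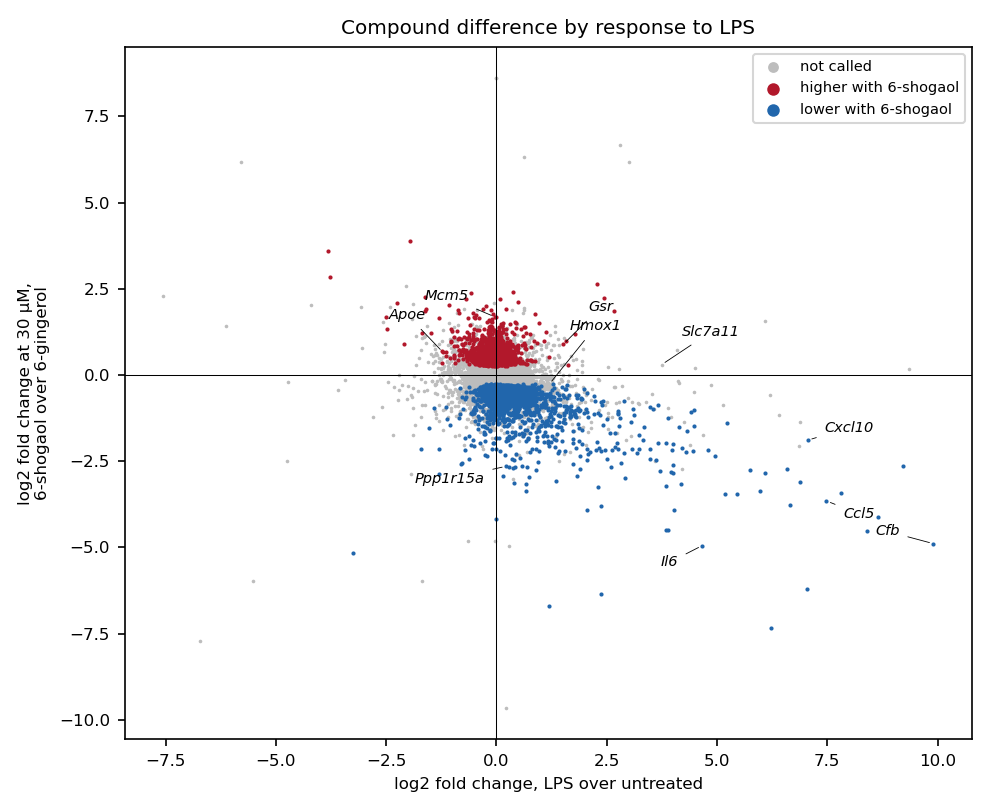
Each point is a gene tested, placed by its log2 fold change of LPS over untreated cells and of 30 µM 6-shogaol over 30 µM 6-gingerol. Genes far to the right, raised by LPS, lie mostly below 0, while Mcm5 and Ppp1r15a, which lie near 0 for LPS, differ between the compounds.

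Some LPS-induced genes differed little between the compounds. For 30 of the 370, against 39.0% of all genes tested, the whole 95% interval of the log2 difference lay within 0.5 of 0. The 6 of these 30 named by their level were Nrp2, Hmox1, Cpd, Susd6, Cd38 and Cflar. Hmox1 (ENSMUSG00000005413, chr8:75093621-75100589), the heme oxygenase and a classical target of NRF2, had 474 and 392 CPM with 6-shogaol and 511 and 532 CPM with 6-gingerol, against 542 and 507 CPM with LPS alone and 226 and 232 CPM untreated. Both 6-shogaol values were below both 6-gingerol values, and the difference was not called (log2 fold change -0.27, interval -0.50 to -0.04, adjusted p = 0.0840). Without 6-shogaol replicate 1, Hmox1 was called lower with 6-shogaol (-0.41, adjusted p = 0.0393). Nrp2, a semaphorin co-receptor, had 553 and 545 CPM with 6-shogaol and 654 and 576 CPM with 6-gingerol, which overlapped. Cflar, the inhibitor of caspase-8, was called within its narrow interval (-0.30, -0.49 to -0.12).

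Antioxidant and electrophile-handling genes went the other way, in part. Of 21 genes of glutathione synthesis, recycling and transfer, 10 rose and 2 fell (57.1% called, against 25.0% over all genes). Their median log2 fold change was 0.37. Of 16 genes of the thioredoxin system and NADPH supply, 8 rose and 3 fell (68.8% called), with a median of 0.43. Gsta3 (ENSMUSG00000025934, chr1:21240589-21265661), a glutathione transferase with close relatives, had 8.73 and 10.7 CPM with 6-shogaol, against 1.86 and 2.28 CPM with 6-gingerol (log2 fold change 2.23, SE 0.30, adjusted p = 8.54e-05). Gclm (ENSMUSG00000028124, chr3:122245557-122270732), the modifier subunit of the enzyme that limits glutathione synthesis, had 139.9 and 136 CPM with 6-shogaol, against 62.0 and 58.8 CPM with 6-gingerol (log2 fold change 1.19, SE 0.10, adjusted p = 7.49e-07). Its catalytic partner Gclc had 49.4 and 57.2 CPM with 6-shogaol, against 25.0 and 26.6 CPM with 6-gingerol. The groups were separate in all 3 genes, with 6-gingerol near the level of LPS alone (60.8 and 63.9 CPM for Gclm). Gsr, which regenerates reduced glutathione, had 166 and 157 CPM with 6-shogaol, against 93.9 and 81.0 CPM with 6-gingerol. Chac1, which degrades glutathione (-0.91), and the transferase Gstt2 (-0.84) fell. No fall was called in this list without 6-shogaol replicate 2, and 1 under each of the other omissions. Slc7a11, the cystine importer, was not called, with 84.4 and 94.5 CPM for 6-shogaol and 74.1 and 71.4 CPM for 6-gingerol (interval 0.05 to 0.55, adjusted p = 0.0734).

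Prdx1, the abundant cytosolic peroxiredoxin, had 2919 and 3282 CPM with 6-shogaol, against 1253 and 1464 CPM with 6-gingerol (log2 fold change 1.19, SE 0.16, adjusted p = 9.78e-05). The enzymes that supply NADPH rose together: Me1 by 0.99, Idh1 by 0.87, Pgd by 0.87 and G6pdx by 0.83 on the log2 scale. Txnrd1, thioredoxin reductase, had 281 and 286 CPM with 6-shogaol and 218 and 204 CPM with 6-gingerol, a smaller difference (0.43, adjusted p = 0.00604) that was not called without 6-gingerol replicate 2 (0.38, adjusted p = 0.0610). Srxn1, which repairs peroxiredoxins, rose by 0.43. Nqo1, the quinone reductase often used as a readout of NRF2, was barely expressed, with 1.10 and 1.07 CPM for 6-shogaol and 0.621 and 0.405 CPM for 6-gingerol, and was not called (1.07, adjusted p = 0.0694). Prdx5 (-0.81), Txnip, the thioredoxin inhibitor (-0.59), and Osgin1 (-0.66) fell.

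Of 12 genes of heme and iron handling 6 rose, against 12.5% of all genes, and none fell in edgeR's test (1 at an unadjusted p under 0.05, and 1 in DESeq2), with a median of 0.25. Ftl1, the ferritin light chain, had 11997 and 10248 CPM with 6-shogaol, against 6855 and 6853 CPM with 6-gingerol (0.70 on the log2 scale), and Blvrb, a biliverdin reductase (0.88), and Slc40a1, the iron exporter (0.75), rose as well. Without 6-shogaol replicate 1, 1 member fell, Hmox1. Of 17 genes of carbonyl and enone reduction and conjugate export, 6 rose and 1 fell (41.2% called, against 25.0% over all genes), with a median of 0.24, and 3 rose without 6-shogaol replicate 2, without 6-gingerol replicate 1 or without 6-gingerol replicate 2. Ptgr1, which reduces the double bond of unsaturated ketones, had 194 and 193 CPM with 6-shogaol, against 91.6 and 112 CPM with 6-gingerol (0.93). Ephx1, an epoxide hydrolase, had 91.0 and 80.5 CPM with 6-shogaol, against 52.7 and 51.5 CPM with 6-gingerol. Both were separate between the groups, with 6-shogaol high. The transporter Abcc5 fell (-0.41), and no fall was called without 6-gingerol replicate 1.

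Of 11 sensors and regulators of the electrophile response, 1 rose and 5 fell (54.5% called, against 25.0% over all genes), with a median of -0.25. Keap1, the thiol sensor that holds NRF2 back, had 46.5 and 34.6 CPM with 6-shogaol and 29.4 and 25.4 CPM with 6-gingerol, a rise of 0.57 on the log2 scale that was not called without 6-shogaol replicate 1 or without 6-gingerol replicate 2. Nfe2l2, which encodes NRF2, was not called (-0.11, interval -0.36 to 0.14). Sqstm1, the autophagy adaptor p62 and an NRF2 target, fell, with 399.9 and 384 CPM for 6-shogaol and 849 and 767 CPM for 6-gingerol. The small MAF partners of NRF2 fell too: Maff (-1.21), Mafk (-0.79) and Mafg (-0.38). The ion channels Trpv1 and Trpa1, the pungency receptors of these compounds, had counts too low to test.

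The promoters of Gsta3 and Gclm are shown because both genes rose and hold letters of the antioxidant response element (ARE), the site of NRF2, searched as TGACNNNGC on both strands. Gsta3 lies at chr1:21240335-21240584 (plus strand), with the match in capitals 121 to 113 bases before the start. Gclm lies at chr3:122245307-122245556 (plus strand), with the match, on the other strand, in capitals 134 to 126 bases before the start.
Gsta3: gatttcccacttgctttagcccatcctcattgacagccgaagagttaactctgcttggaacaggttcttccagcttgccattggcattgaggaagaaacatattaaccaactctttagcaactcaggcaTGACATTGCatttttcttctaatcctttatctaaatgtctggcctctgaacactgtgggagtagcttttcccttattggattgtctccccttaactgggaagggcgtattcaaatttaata
Gclm: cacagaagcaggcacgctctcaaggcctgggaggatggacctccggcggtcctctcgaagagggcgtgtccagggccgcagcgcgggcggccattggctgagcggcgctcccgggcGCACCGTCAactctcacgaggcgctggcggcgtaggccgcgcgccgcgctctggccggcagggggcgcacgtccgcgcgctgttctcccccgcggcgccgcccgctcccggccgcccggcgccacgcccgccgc
The ARE letters were found in 10.2% of all promoters, 13.9% of tested genes with a promoter, 17 of 107 (15.9%) of the genes at least 2-fold higher with 6-shogaol and 42 of 274 (15.3%) of those at least 2-fold lower. The Cxcl10 promoter shown above also holds ARE letters, left unmarked there, and Cxcl10 fell.

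Cytosolic chaperones were higher with 6-shogaol. Of 22 heat shock genes 11 rose and none fell in edgeR's test (1 at an unadjusted p under 0.05, and 1 in DESeq2). That was 50.0% called, against 25.0% over all genes, with a median log2 fold change of 0.37. The rises numbered 6 without 6-shogaol replicate 1, 7 without 6-shogaol replicate 2 and 6 without 6-gingerol replicate 2. Hspa8 (ENSMUSG00000015656, chr9:40800984-40810087), the constitutive HSP70, had 2408 and 2460.4 CPM with 6-shogaol, against 703 and 764 CPM with 6-gingerol (log2 fold change 1.73, SE 0.11, adjusted p = 9.95e-08). All other 10 libraries lay well below the 6-shogaol pair. Hsph1, a nucleotide exchange factor of HSP70, had 113 and 116 CPM with 6-shogaol, against 60.5 and 59.6 CPM with 6-gingerol, and Hsp90aa1, the inducible HSP90, 1155 and 1354 CPM with 6-shogaol, against 739.7 and 817 CPM with 6-gingerol. The most stress-inducible pair was near the floor of detection. Hspa1b had 2.32 and 1.24 CPM with 6-shogaol and 0.621 and 0.304 CPM with 6-gingerol, and was called (1.92, adjusted p = 0.0121), but not without 6-shogaol replicate 1 (1.42, adjusted p = 0.139) or without 6-gingerol replicate 2 (1.50, adjusted p = 0.109). Hspa1a had 1.40 and 0.902 CPM with 6-shogaol and 0.466 and 0.354 CPM with 6-gingerol and was not called (adjusted p = 0.0824). Both genes are near-identical, so reads can be split between them and both values are uncertain. Dnajb1, the HSP40 partner, was called (0.48, adjusted p = 0.0119), but not without 6-shogaol replicate 1 (0.33, adjusted p = 0.136) or without 6-gingerol replicate 2 (0.44, adjusted p = 0.0800).

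Of 32 genes of the constitutive proteasome 12 rose and 1 fell (40.6% called, against 25.0% over all genes), with a median of 0.20. Without 6-gingerol replicate 1, 5 rose. Psmd1, a scaffold of the regulatory particle, had 218 and 223 CPM with 6-shogaol, against 96.2 and 96.0 CPM with 6-gingerol (1.20), and the catalytic subunit Psmb6 fell, with 403 and 369.6 CPM for 6-shogaol and 602 and 643 CPM for 6-gingerol. Of 22 chaperones and degradation genes of the endoplasmic reticulum 6 rose and 1 fell (31.8% called, against 25.0% over all genes), with a median of 0.12. Under each omission of a library 3 rose, and none fell without 6-shogaol replicate 2 or without 6-gingerol replicate 1. Calr (0.55) and Sdf2l1 (0.60) were among the rises, and Hspa5, the main chaperone there and a readout of the unfolded protein response, was not called (-0.06, interval -0.31 to 0.18).

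Targets of ATF4, the factor of the integrated stress response, were lower with 6-shogaol. Of 29 tested, 17 fell and none rose in edgeR's test (1 at an unadjusted p under 0.05, and 1 in DESeq2). That was 58.6% called, against 25.0% over all genes, with a median log2 fold change of -0.40. Without 6-shogaol replicate 2, 1 member was called higher. Ppp1r15a (ENSMUSG00000040435, chr7:45522916-45526268), which encodes GADD34 and restarts translation after stress, had 15.2 and 17.8 CPM with 6-shogaol, against 106 and 101 CPM with 6-gingerol (log2 fold change -2.65, SE 0.13, adjusted p = 3.65e-09). LPS alone had 94.9 and 108 CPM and untreated cells 80.7 and 93.8 CPM, so 6-shogaol at 30 µM stood apart from every other condition. Ddit3, which encodes the pro-apoptotic factor CHOP, had 34.4 and 39.1 CPM with 6-shogaol, against 124 and 156 CPM with 6-gingerol (log2 fold change -1.93, SE 0.15, adjusted p = 5.55e-07). Trib3, a pseudokinase induced by CHOP, had 32.1 and 26.9 CPM with 6-shogaol, against 136 and 112 CPM with 6-gingerol. Both were below all other libraries. Atf4 itself had 321 and 347 CPM with 6-shogaol and 494 and 547 CPM with 6-gingerol, and Atf3, a stress factor also induced by LPS, 109 and 108 CPM with 6-shogaol and 269 and 261 CPM with 6-gingerol. Psat1, an enzyme of serine synthesis driven by ATF4, was not called (0.27, adjusted p = 0.0930).

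Immediate early genes and MAP kinase phosphatases, whose mRNAs turn over quickly, were lower as well. Of 27 tested, 18 fell and none rose in edgeR's test (0 at an unadjusted p under 0.05, and 0 in DESeq2). That was 66.7% called, against 25.0% over all genes, with a median log2 fold change of -0.77. Egr2 (-2.18), Klf6 (-1.25) and Jund (-1.25), all transcription factors, and Ier3 (-1.46), an NF-κB target, were among the falls. Ier3 had 47.4 and 40.1 CPM with 6-shogaol, against 116 and 125 CPM with 6-gingerol. Jun, a subunit of AP-1, had 35.2 and 28.7 CPM with 6-shogaol and 59.1 and 55.4 CPM with 6-gingerol, and its partner Fos 1.10 and 1.3 CPM with 6-shogaol and 2.23 and 2.33 CPM with 6-gingerol. Dusp1, the phosphatase that shuts off p38, fell by 1.10 on the log2 scale. Of 22 genes of cytokine receptors and their feedback, 7 fell and 2 rose (40.9% called, against 25.0% over all genes), with a median of -0.28. Jak2, the receptor kinase (-1.02), and Socs3, its feedback inhibitor (-0.97), fell, while Il10ra (0.59) and Ifngr1 (0.42), receptor chains for interleukin-10 and interferon-γ, rose, of which 1 was called without 6-shogaol replicate 1 or without either 6-gingerol library.

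Genes of DNA replication and the G1/S step were the list with most rises: 31 of 35 rose and 1 fell, with a median log2 fold change of 0.96, where 12.5% of all genes rose. The list, like the others, was chosen with earlier results of these data known, and it was not tested as a set. Mcm5 (ENSMUSG00000005410, chr8:75109569-75128439), part of the replicative helicase, had 242 and 217 CPM with 6-shogaol, against 74.3 and 68.7 CPM with 6-gingerol (log2 fold change 1.68, SE 0.12, adjusted p = 1.33e-07). Its helicase partner Mcm6 had 407 and 442 CPM with 6-shogaol, against 164 and 169 CPM with 6-gingerol. Ccne2, cyclin E2, which starts S phase, had 52.5 and 63.0 CPM with 6-shogaol, against 15.6 and 15.8 CPM with 6-gingerol. The other 10 libraries were all below the 6-shogaol pair in these genes, and untreated cells had 67.4 and 68.8 CPM of Mcm5. Cdc6, the helicase loader, had 39.0 and 42.7 CPM with 6-shogaol, against 11.7 and 12.1 CPM with 6-gingerol, and Rrm1, the large subunit of ribonucleotide reductase, 338 and 381 CPM with 6-shogaol, against 116 and 108 CPM with 6-gingerol. Rmi2, part of the complex that dissolves crossed DNA strands, had the highest fold change of the list, with 9.40 and 7.61 CPM for 6-shogaol and 1.71 and 1.47 CPM for 6-gingerol (log2 fold change 2.42, SE 0.23, adjusted p = 3.21e-06). Myc, the growth factor-driven transcription factor, was the member that fell, with 8.61 and 9.30 CPM for 6-shogaol and 16.7 and 18.6 CPM for 6-gingerol. Tyms (0.13), Ccnd2 (0.11) and Rfc4 (0.38, adjusted p = 0.0827) were not called.

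Mitotic genes moved less. Of 24, 10 rose and 1 fell (45.8% called, against 25.0% over all genes), with a median of 0.30. Mki67, which encodes the proliferation marker Ki-67, had 593 and 621 CPM with 6-shogaol, against 386 and 365 CPM with 6-gingerol, and Cdk1, the mitotic kinase, rose by 0.86, whereas Ccnb2, a cyclin of mitosis, was called lower (-0.37) but not without 6-shogaol replicate 1 or without 6-gingerol replicate 2. Of 19 p53 targets 3 rose and 6 fell (47.4% called, against 25.0% over all genes), with a median of -0.30. Mdm2, which degrades p53, had 49.3 and 56.7 CPM with 6-shogaol, against 137 and 143 CPM with 6-gingerol. Gadd45a (-1.32) and Plk2 (-1.18) fell, Pidd1 (1.3) and Sesn1 (0.78) rose, and Cdkn1a, the inhibitor p21, was not called (-0.08, interval -0.37 to 0.20).

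The promoters of Mcm5 and Mcm6 are shown because both rose and hold letters bound by E2F, the factor that drives G1/S genes, searched as TTTGGCGC or TTTCCCGC on both strands. Mcm5 lies at chr8:75109259-75109508 (plus strand), with the match, on the other strand, in capitals 149 to 142 bases before the start. Mcm6 lies at chr1:128359706-128359955 (minus strand), with its 2 matches in capitals 110 to 103 and 47 to 40 bases before the start.
Mcm5: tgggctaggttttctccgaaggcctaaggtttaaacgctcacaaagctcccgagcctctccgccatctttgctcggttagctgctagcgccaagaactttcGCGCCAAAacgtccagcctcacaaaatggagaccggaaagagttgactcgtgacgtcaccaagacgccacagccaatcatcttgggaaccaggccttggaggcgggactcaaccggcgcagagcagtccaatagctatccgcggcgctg
Mcm6: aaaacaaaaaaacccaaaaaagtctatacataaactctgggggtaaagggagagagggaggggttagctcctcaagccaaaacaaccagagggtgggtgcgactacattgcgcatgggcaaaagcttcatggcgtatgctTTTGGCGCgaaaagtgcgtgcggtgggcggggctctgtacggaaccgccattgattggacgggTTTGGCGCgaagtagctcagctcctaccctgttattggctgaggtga
The E2F letters were in 1.3% of all promoters, in 3.01% of tested genes with a promoter, in 8 of 107 (7.48%) of the genes at least 2-fold higher with 6-shogaol and in 4 of 274 (1.46%) of those at least 2-fold lower.

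Sterol and fatty acid synthesis was higher with 6-shogaol. Of 27 genes 20 rose and none fell in edgeR's test (0 at an unadjusted p under 0.05, and 0 in DESeq2). That was 74.1% called, against 25.0% over all genes, with a median log2 fold change of 0.61. Insig1 (ENSMUSG00000045294, chr5:28071363-28078662), a sensor that holds the SREBP system in check and is itself its target, had 266 and 288 CPM with 6-shogaol, against 114 and 121 CPM with 6-gingerol (log2 fold change 1.24, SE 0.10, adjusted p = 8.69e-07). Both 6-shogaol libraries were above all others, which ran down to 61.2 and 56.1 CPM in untreated cells. The desaturase Scd2 had 2380.0 and 2269 CPM with 6-shogaol, against 1266 and 1162 CPM with 6-gingerol. Elovl6 (1.09), Hsd17b7 (0.96), Idi1 (0.92) and Fdft1 (0.90), enzymes of both routes, rose too.

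Targets of LXR, the sterol-sensing receptor of lipid efflux, split: 3 of 11 rose and 2 fell (45.5% called, against 25.0% over all genes), with a median of -0.14. Apoe, the lipid carrier, had 317 and 295 CPM with 6-shogaol, against 183 and 205 CPM with 6-gingerol, and 439 and 413 CPM in untreated cells. Abca1, which exports cholesterol, had 148 and 134 CPM with 6-shogaol, against 289.9 and 250.1 CPM with 6-gingerol, and Nr1h3, which encodes LXRα, fell by 1.42 on the log2 scale. In both genes the groups were separate. Of 23 genes of glycolysis and HIF-1 (median -0.09) 30.4% were called, a share near the 25.0% over all genes: 7 fell and none rose in edgeR's test (1 at an unadjusted p under 0.05, and 0 in DESeq2), among the falls Slc2a1, the glucose importer (-0.57), and Vegfa (-0.54), with 3 falls without 6-shogaol replicate 2 and 4 without 6-gingerol replicate 2. Ldha, lactate dehydrogenase, was not called (interval -0.37 to 0.37). Of 30 nuclear-encoded respiratory chain genes (median 0.13) 23.3% were called, also near that share: 7 rose and none fell in edgeR's test (0 at an unadjusted p under 0.05, and 0 in DESeq2), with 4 rises without either 6-shogaol library and 3 without 6-gingerol replicate 1. Cox7a2 (0.75) and Ndufb3 (0.72) were among them. Of 13 mitochondrially encoded mRNAs 2 rose (15.4%, near the 12.5% of all genes) although their median was -0.14, and none rose without 6-shogaol replicate 2 or without either 6-gingerol library. None of 32 cytosolic ribosomal protein genes was called in edgeR's test (1 at an unadjusted p under 0.05, and 1 in DESeq2), and their median was 0.01.

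Receptors by which microglia recognise debris and lipids changed in both directions: 6 of 26 genes rose and 3 fell (34.6% called, against 25.0% over all genes), with a median of 0.05. Mertk, a receptor for dying cells, had 10.4 and 9.58 CPM with 6-shogaol, against 4.35 and 5.42 CPM with 6-gingerol (1.03). Trem2, the lipid receptor of disease-associated microglia, had 57.6 and 55.6 CPM with 6-shogaol, against 40.5 and 37.0 CPM with 6-gingerol (0.55), and its signalling adaptor Tyrobp rose by 0.66. Csf1r, the survival receptor for CSF1, fell, with 351 and 288 CPM for 6-shogaol and 501 and 444 CPM for 6-gingerol. The falls in this list were 1 without 6-shogaol replicate 2 or without 6-gingerol replicate 1. The homeostatic receptor P2ry12 was near 0 in both groups (0.366 and 0.282 CPM with 6-shogaol and 0.518 and 0.658 CPM with 6-gingerol). Of 30 lysosome and autophagy genes 2 rose and 5 fell (23.3% called, near the 25.0% over all genes), with a median of -0.06, and the falls were 3 without either 6-shogaol library. No rise was called there without 6-shogaol replicate 1 or without 6-gingerol replicate 2, and 1 was called without 6-gingerol replicate 1. Of 10 metallothionein and zinc genes (60.0% called, against 25.0% over all genes, median -0.03) 3 rose, Mt1 (0.78) and Mt2 (0.62) among them, and 3 fell, with 1 in each direction without 6-gingerol replicate 1.

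**Figure D4:**
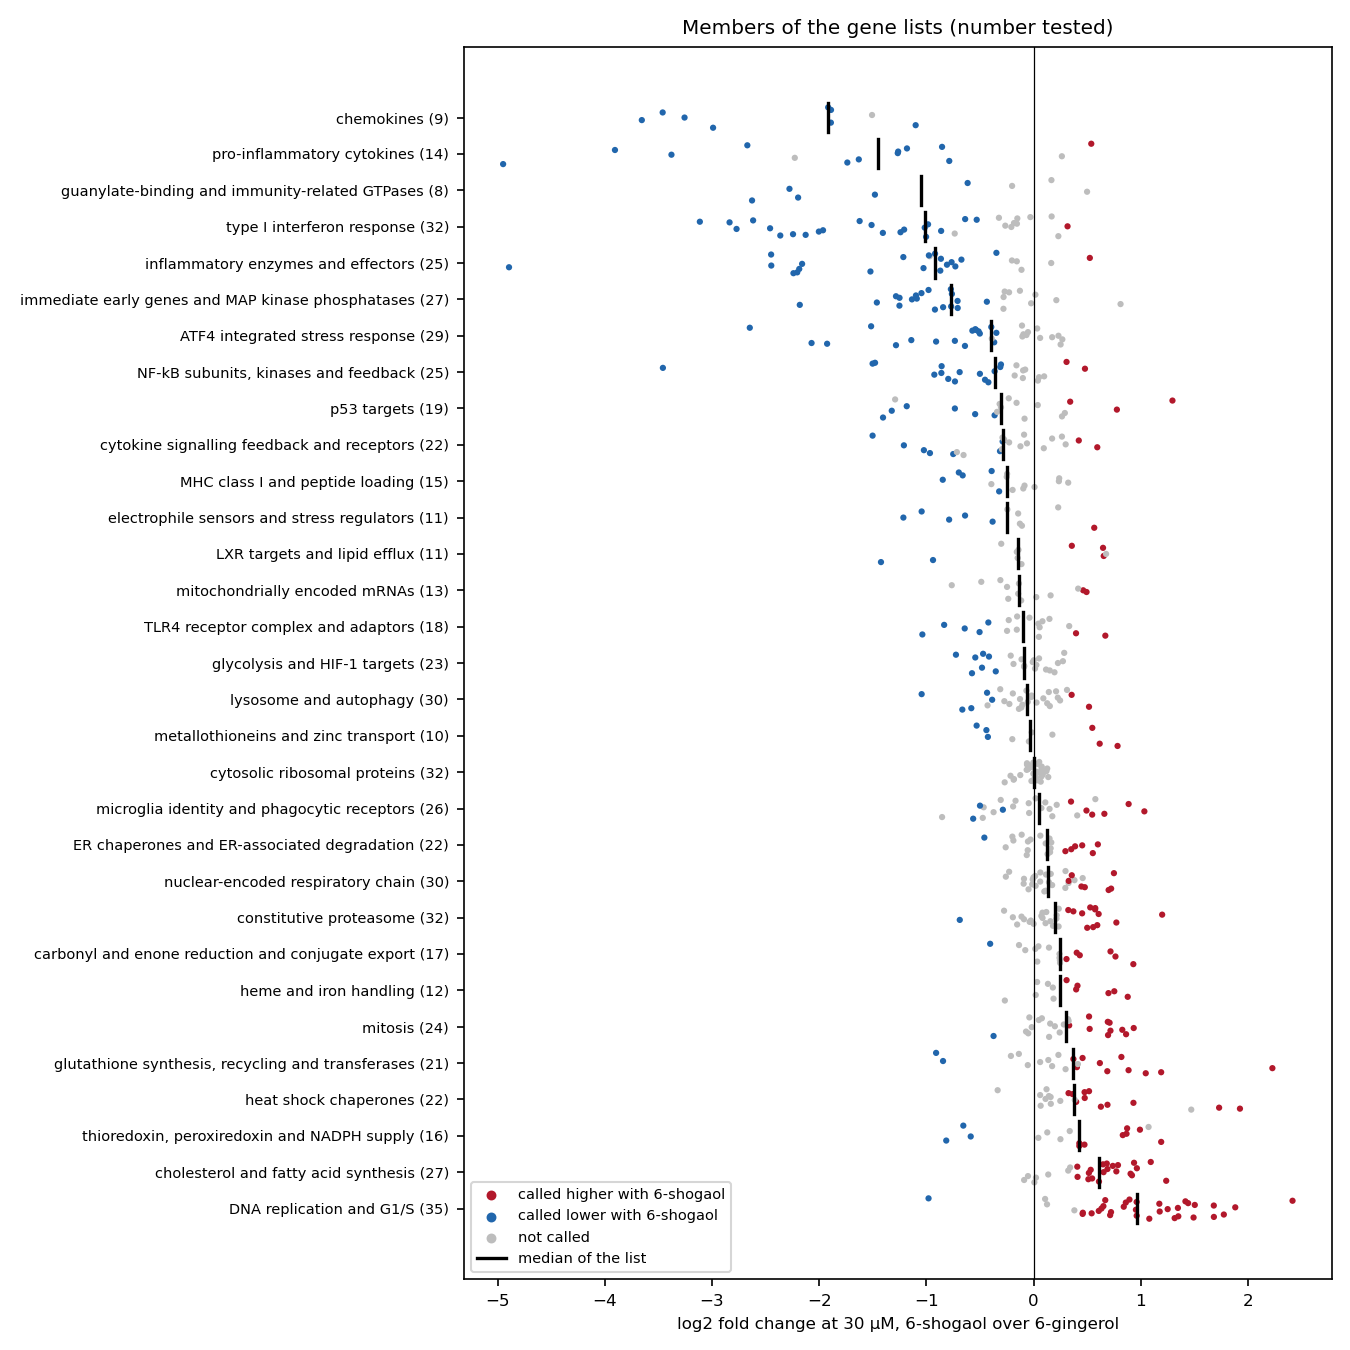
Log2 fold change of each tested member of 31 gene lists, 6-shogaol over 6-gingerol at 30 µM, with the median of each list as a black bar and the number tested in brackets. Lists run from the lowest median, chemokines at -1.92, at the top to the highest, DNA replication and G1/S at 0.96, at the bottom.

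The same pair of compounds was also compared at 10 µM, in libraries of which none entered the 30 µM contrast, so that 2 pairs were compared in all. At 10 µM 81 genes (0.638%) were called, 10 (0.0787%) higher and 71 (0.559%) lower with 6-shogaol. The calls fell to 23 without 6-shogaol replicate 1, 16 without 6-shogaol replicate 2, 36 without 6-gingerol replicate 1 and 49 without 6-gingerol replicate 2. When p-values were adjusted over both doses together, 399 genes were called at 10 µM. Of the 81 genes, 74 were also called at 30 µM, all 74 in the same direction. No gene was called in opposite directions at the 2 doses in edgeR's test. Over all 12705 genes, the 10 µM and 30 µM differences had the same sign in 56.0%, and their correlation across genes was 0.26. Over the 3171 genes called at 30 µM these values were 67.5% and 0.57, and over the 1592 higher ones 62.9% and 0.23. They are descriptions, since genes are not independent replicates. The genes higher at 30 µM had a median log2 difference of 0.06 at 10 µM and 0.53 at 30 µM, and the lower ones -0.12 at 10 µM and -0.63 at 30 µM.

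Interferon, chemokine, cytokine and effector genes were among those called lower at 10 µM. Of 32 interferon genes 15 were called lower, of 9 chemokines 6, of 14 cytokines 4 and of 25 effectors 6, against 0.559% of all genes. The lowest named genes were Il6, Rtp4, Ccl5, Xaf1, Phf11b and Cxcl10. Il6 had 32.9 and 25.5 CPM with 10 µM 6-shogaol, against 174 and 163 CPM with 10 µM 6-gingerol (log2 fold change -2.53, SE 0.16, adjusted p = 8.02e-07). Cxcl10, a chemokine for T cells, had 83.2 and 82.1 CPM with 10 µM 6-shogaol, against 221 and 250.4 CPM with 10 µM 6-gingerol (-1.51), and 51.2 and 58.1 CPM with 30 µM 6-shogaol, against 182 and 224 CPM with 30 µM 6-gingerol (-1.89). For Cxcl10 the 2 differences were close, and their own difference was not called (interval of -0.71 to -0.04, adjusted p = 0.151). Isg15 had 37.0 and 34.6 CPM with 10 µM 6-shogaol, against 113 and 86.3 CPM with 10 µM 6-gingerol. The highest named genes were Tspoap1, Them6, Ajm1, Efr3b, Arrb1 and Pim2, of which Tspoap1, a synaptic scaffold gene, had 18.7 and 20.9 CPM with 10 µM 6-shogaol, against 7.67 and 12.0 CPM with 10 µM 6-gingerol (1.01). With all libraries edgeR called 10 genes higher at 10 µM, and 1857 genes passed an unadjusted p under 0.05 in either direction. None was called higher without 6-shogaol replicate 1, without 6-shogaol replicate 2 or without 6-gingerol replicate 1, and 9 were without 6-gingerol replicate 2.

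None of the 21 glutathione, 16 thioredoxin, 22 heat shock, 29 ATF4, 27 sterol or 35 replication genes was called at 10 µM in edgeR's test. At an unadjusted p under 0.05, 5 glutathione, 1 thioredoxin, 1 heat shock, 3 ATF4, 5 sterol and 2 replication genes were higher with 6-shogaol, and 1 glutathione, 1 thioredoxin, 1 heat shock, 7 ATF4, 0 sterol and 1 replication genes were lower. DESeq2 called 1 glutathione, 1 ATF4, 2 sterol and 1 replication genes higher and 1 thioredoxin and 1 ATF4 gene lower. Gclm had 71.0 and 64.0 CPM with 10 µM 6-shogaol and 63.8 and 63.4 CPM with 10 µM 6-gingerol, with an interval of -0.12 to 0.29 on the log2 scale. Hspa8 had 877 and 873 CPM with 10 µM 6-shogaol and 717 and 714 CPM with 10 µM 6-gingerol (0.29, interval 0.05 to 0.53). Mcm5 had 82.2 and 74.8 CPM with 10 µM 6-shogaol and 75.0 and 58.7 CPM with 10 µM 6-gingerol (0.23, interval -0.01 to 0.48). Ppp1r15a had 83.5 and 99.2 CPM with 10 µM 6-shogaol and 111 and 110.0 CPM with 10 µM 6-gingerol (-0.28, interval -0.52 to -0.03). The unadjusted intervals of Hspa8 and Ppp1r15a excluded 0, in the direction seen at 30 µM. Those of Gclm and Mcm5 included 0 and leave room for small differences at 10 µM. All of these intervals end short of the 30 µM values of the same genes.

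Whether the compound difference itself changed with dose was tested as the 30 µM difference minus the 10 µM difference. It was called for 1038 genes (8.17%), 542 (4.27%) with a higher and 496 (3.9%) with a lower value at 30 µM. Without 1 of the 8 libraries at a time the calls ran from 300 (without 10 µM 6-shogaol replicate 2) to 839 (without 10 µM 6-gingerol replicate 2). They were 346 without 30 µM 6-shogaol replicate 2, 354 without 30 µM 6-gingerol replicate 1, 397 without 10 µM 6-shogaol replicate 1 and 474 without 10 µM 6-gingerol replicate 1. Scaled by library totals in place of TMM, 262 were higher and 759 lower. With that scaling the median of all genes was -0.15 for this difference and 0.11 for the 10 µM difference. Of 35 replication genes 27 were called higher for the dose difference and 1 lower, of 27 sterol genes 12 higher, of 27 immediate early genes 14 lower, of 25 NF-κB genes 10 lower, of 29 ATF4 genes 6 lower and of 32 interferon genes 6 lower and 1 higher. Cfb had a log2 difference of -1.47 at 10 µM and -4.89 at 30 µM (-3.42 between doses, SE 0.14, adjusted p = 2.27e-09). Cxcl2 had -0.80 at 10 µM and -3.46 at 30 µM. Hspa8 had 0.29 at 10 µM and 1.73 at 30 µM, and Prdx1 -0.18 at 10 µM and 1.19 at 30 µM. Ifit2 was called for the dose difference (0.54, adjusted p = 0.0405), though not called at 30 µM.

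**Figure D5:**
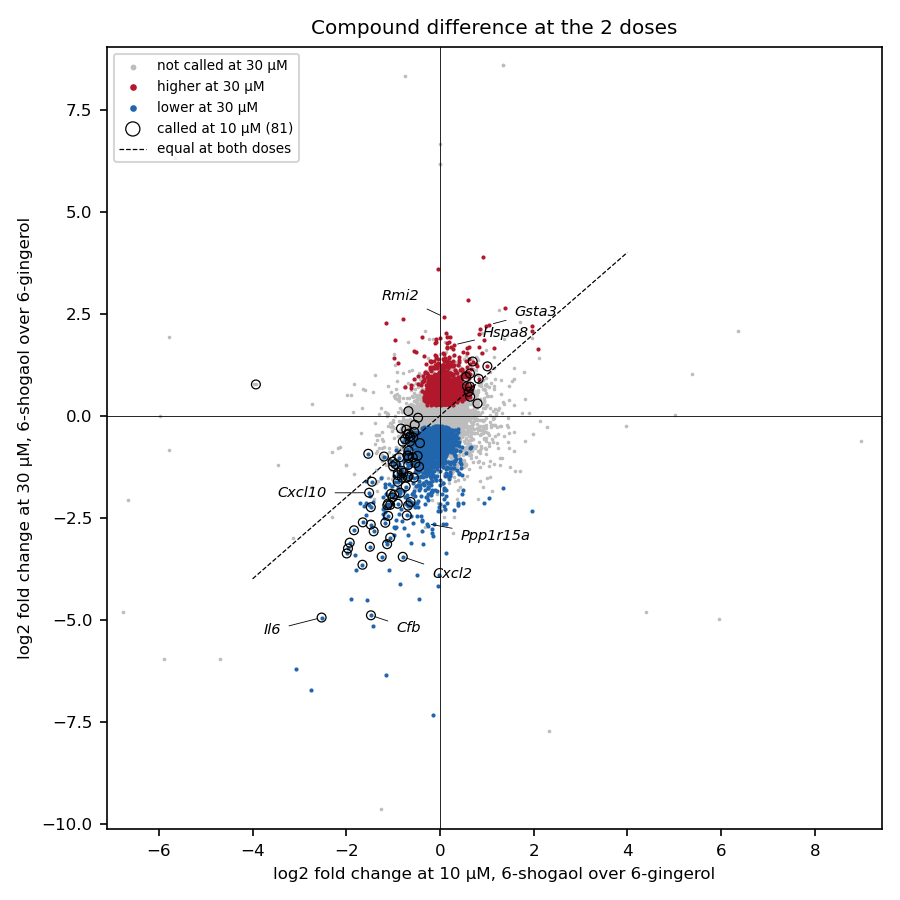
Each point is a gene tested, placed by its log2 fold change of 6-shogaol over 6-gingerol at 10 µM and at 30 µM, with the 81 genes called at 10 µM circled and the line of equal differences dashed. Most circled genes lie below 0 on both axes, and many genes called at 30 µM, such as Rmi2, Hspa8 and Ppp1r15a, lie near 0 at 10 µM.

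For many genes the compounds could be set close to each other. The whole 95% interval of the log2 difference lay within 0.5 of 0 for 4959 genes (39.0%) at 30 µM and for 6857 (54.0%) at 10 µM. The median half-width of an interval was 0.29 at each dose, with 2 libraries per group. These intervals are not adjusted for the number of genes tested. For the typical gene, a call at an adjusted p under 0.05 therefore needed a difference larger than this.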

How the data were processed

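Stranded poly(A) RNA sequencing gave 12 libraries in 6 groups of 2, and the labels assigned each to its group. The deposited per-library tables hold RSEM expected counts (estimated reads per gene, of which 7.03% were not whole) and TPM, per the file headers. The authors also deposited 1 table of a normalized signal for the whole series, with a normalization not given in the sources used here. The submitters' processing notes list DESeq2 1.44.0 in R 4.4.2, RSEM 1.3.3, STAR 2.7.11b, FastQC 0.12.1, Trimmomatic 0.39 and the GRCm38 build, without their roles. Of 43432 gene identifiers, 98.0% matched a symbol in GENCODE M21.

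Expected counts were rounded, filtered by filterByExpr (12705 genes kept), scaled by TMM and fitted in edgeR 4.0.16 (R 4.3.3) for all 12 libraries with 6 group means. The fit had 6 residual degrees of freedom and a common biological coefficient of variation of 9.45%. Each p-value of a gene is from the 2-sided quasi-likelihood F test, adjusted by Benjamini-Hochberg over all genes tested, and intervals are 95%. CPM were computed with TMM-scaled library sizes. TPM served only for marker sums, and the normalized signal only for an alternative with limma 3.58.1 on log2(value + 1). Other alternatives were DESeq2 1.42.0, limma-voom, other scalings and filters, fragment length, a replicate block and omitted libraries. The fit was tested on simulated data.

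The comparison, gene lists and named genes were chosen with earlier results of these data known. The genes named were the 12 highest and 12 lowest called fold changes with at least 5 CPM in the higher group, separate groups and a plain symbol, up to 5 called members of each list with members called against its direction or not called, 22 fixed genes, the 6 highest and 6 lowest at 10 µM and for the dose difference, genes called in opposite directions at the 2 doses, and the 6 most abundant LPS-induced genes with an interval within 0.5 of 0. Lists are described by counts and medians, with no test of a list. Single-gene results for some genes that met these rules are not reported here.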

Additional observations from a re-analysis of the deposited data

Results flagged for a closer look

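The compound difference depended on dose for 1038 of 12705 genes, by edgeR's quasi-likelihood test of the 30 µM difference minus the 10 µM difference. Among genes with at least 5 CPM in a group, the largest falls with dose on the log2 scale included those of Cfb (-3.419), Cxcl2 (-2.665), Snhg12 (-2.448), Il6 (-2.421) and Ppp1r15a (-2.371). Cfb, Cxcl2 and Il6 are inflammatory genes that were lower with 6-shogaol at both doses. Snhg12 had -0.26 at 10 µM (interval -0.50 to -0.02), and Ppp1r15a had -0.28 (interval -0.52 to -0.03), neither called there.

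The largest rises with dose were those of Rmi2 (2.33), S100a11 (2.133), Dscc1 (2.054), Ccne2 (1.962), S100a4 (1.896) and Tmem254c (1.888). Of these, Rmi2, Dscc1 and Ccne2 act in DNA replication or repair, and none of the 6 was called at 10 µM in edgeR's test. S100a11 had a log2 difference of -0.55 at 10 µM (interval -0.84 to -0.25) and 1.59 at 30 µM, and Dscc1 -0.50 at 10 µM (interval -0.97 to -0.03) and 1.55 at 30 µM, so that part of each dose difference lay in a negative value at 10 µM. With 2 libraries per group no sample could be examined as standing apart from its group.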

How the results depend on the processing

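The count of 3171 genes called at 30 µM ran from 2272 (limma-trend on the normalized signal) to 3743 (without the untreated libraries) under other tools, scalings and filters, and from 1807 to 2157 with 1 library left out. Of the 3171, those tested under each of these settings (2996 with the stricter filter, 3149 with only the groups compared, 3168 without the untreated libraries) kept their direction, except 12 of 3157 in limma-trend on the normalized signal. The 81 genes called at 10 µM were 179 with DESeq2, 42 with limma-trend on the normalized signal, 419 with no count filter, 152 with only the groups compared, 258 without the untreated libraries, 399 adjusted over both doses, and 16 to 49 with 1 library left out. The 1038 genes called for the dose difference were 471 with limma-trend on the normalized signal, 1735 without the untreated libraries, and 300 to 839 with 1 library left out. The 1501 genes called for LPS were 768 to 1602 with 1 library left out. Why these counts moved was not tested. Of the log2 fold changes of 55 named genes, 205 of 220 values kept direction and side of the threshold with 1 library left out, as did 644 of 652 under the other alternatives. Cpd (-0.213 to 0.054) and Susd6 (-0.159 to 0.032), which were not called, changed sign without 6-gingerol replicate 1. The labels do not say that replicate numbers pair samples, and the deviations of same-numbered 6-shogaol and 6-gingerol libraries at 30 µM correlated at 0.14. A replicate block gave 3242 calls at 30 µM, 81 at 10 µM, 1032 for the dose difference and 1541 for LPS.

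With 2 libraries per group, the median 95% interval reached 0.29 on the log2 scale to either side of a difference within a dose. For the dose difference it reached 0.41. These intervals are unadjusted, so a call needed a difference larger than these for a typical gene. Genes under the count filter were not tested. Expected counts split reads among similar genes, so close paralogs are uncertain.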
